A study of Mus musculus with 7 samples.

Results

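Oligodendroglia from mouse brain were compared between cells of the genotype Sox9-tg, which overexpressed the transcription factor Sox9 (4 libraries), and cells of the genotype Sox9-wt, the control (3 libraries). The description here covers the collagen chain genes other than those of the cartilage set, that is every gene whose name has the form of a collagen alpha chain except Col2a1, Col9a1, Col9a2, Col9a3, Col11a1, Col11a2 and Col27a1. There were 37 such genes among the 49315 in the files, and 32 of them had enough counts to be tested. By the title of the series the cells were early postnatal NG2 glia, the progenitors from which oligodendrocytes form, and the question was which genes Sox9 targets in them. The promoter that drove the extra Sox9, the exact age and sex of the mice, the way the cells were isolated and any batch were not stated by the labels. Titles name the libraries biological replicates but do not tie them to separate animals or cultures, and p-values therefore reflect only how far these libraries differ, part of which may be technical.

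Collagens are triple helices of alpha chains, and each gene encodes a chain that assembles with itself or with a fixed set of partners. Fibrillar collagens form the fibres of connective tissue, fibril-associated collagens (FACITs) decorate those fibres, type IV collagens build the sheet of basement membranes, and type VI collagens build beaded filaments beside them. In brain, fibrillar chains are made chiefly by meningeal and perivascular fibroblasts, and the chains Col4a1 and Col4a2 of the vessel basement membrane chiefly by endothelial cells and pericytes. Sox9 is best known among matrix genes as an activator of the cartilage collagens left out here.

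Gene counts per library ran from 15768472 to 20815459 in Sox9-tg and from 17275678 to 30507326 in control libraries, and a count of 3 was worth between 0.0970 and 0.193 CPM (counts scaled by library size). Sox9 itself was at 2207, 2741, 3597 and 3115 CPM in Sox9-tg libraries, against 239, 353 and 293 CPM in control libraries, a 9.88-fold rise (edgeR quasi-likelihood test, adjusted p = 0.000181). Markers of the labelled cell type were present in every library. Their summed level over 10 oligodendroglial genes was 9841 to 16549 CPM in Sox9-tg and 4140 to 5230 CPM in control libraries. Of the 10, 9 rose, where 7.69% of all 16616 tested genes rose and 5.86% fell at an adjusted p under 0.05. Counts in the other cell type lists stand beside the same shares. In bulk samples such as these, fewer cells of a type and less RNA per cell cannot be told apart. A single control library stood apart in genes of other cell types. The summed level of 14 endothelial markers was 15.9, 47.6, 15.6 and 18.7 CPM in Sox9-tg libraries, against 14.6, 204 and 12.03 CPM in control libraries 1 to 3, so control library 2 was at 15.4 times the mean of the other controls. Sox9-tg library 2 was the highest of its group in the same list. Kdr was the largest member of the list in every Sox9-tg library, at 6.62, 12.3, 6.89 and 8.64 CPM, against 1.86, 30.2 and 1.13 CPM in control libraries. Outside the libraries numbered 2, the endothelial sums therefore lean on this gene and do not rank the groups. Summed over 12 microglial markers the levels were 61.8, 385, 135 and 104 CPM in Sox9-tg libraries, against 127, 917 and 276 CPM in control libraries, again highest in the libraries numbered 2. Over 10 astrocyte markers the sum was 1509 to 2211 CPM in Sox9-tg and 2258 to 4078 CPM in control libraries, and over 10 neuronal markers 1407 to 2439 CPM in Sox9-tg and 2367 to 3627 CPM in control libraries, with 5 genes of each list lower and none higher. No marker in any of the cell type lists was at 0 in every library of a group.

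Of the 32 chains tested, 8 rose, 4 fell and 20 did not pass the test at an adjusted p of 0.05, where 13.5% of all 16616 tested genes passed it, 7.69% higher and 5.86% lower. The chains that rose were Col5a1, Col5a3, Col4a3, Col6a3, Col14a1, Col16a1, Col20a1 and Col26a1, and those that fell were Col5a2, Col6a4, Col6a5 and Col28a1. The share of tested chains called was 37.5%, or 25% higher and 12.5% lower. Groups did not overlap for 13 chains, 8 higher and 5 lower in Sox9-tg, where 24.5% of all tested genes did not overlap, 13.1% higher and 11.5% lower. The median log2 fold change over the tested chains was −0.16, against −0.01 over all tested genes, while the median of its absolute size was 0.90, against 0.28. The 7 cartilage collagens, for comparison, all rose, with a median of 4.05. Of the 12 calls, 4 held when any single library was left out: Col6a3, Col6a5, Col16a1 and Col20a1. Of these, Col6a5 was not called with the filter of 1 CPM in 3 libraries. Of the tested chains, 3 reached the count filter in the libraries of a single group and in none of the other. These were Col4a3 through Sox9-tg, and Col6a4 and Col6a5 through control libraries. All 3 count among the 12 calls and in the share of 37.5%. The remaining 5 chains of the 37 (Col6a6, Col8a1, Col10a1, Col13a1 and Col17a1) were at 0 to 12 counts per library and were not tested.

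**Figure D1:**
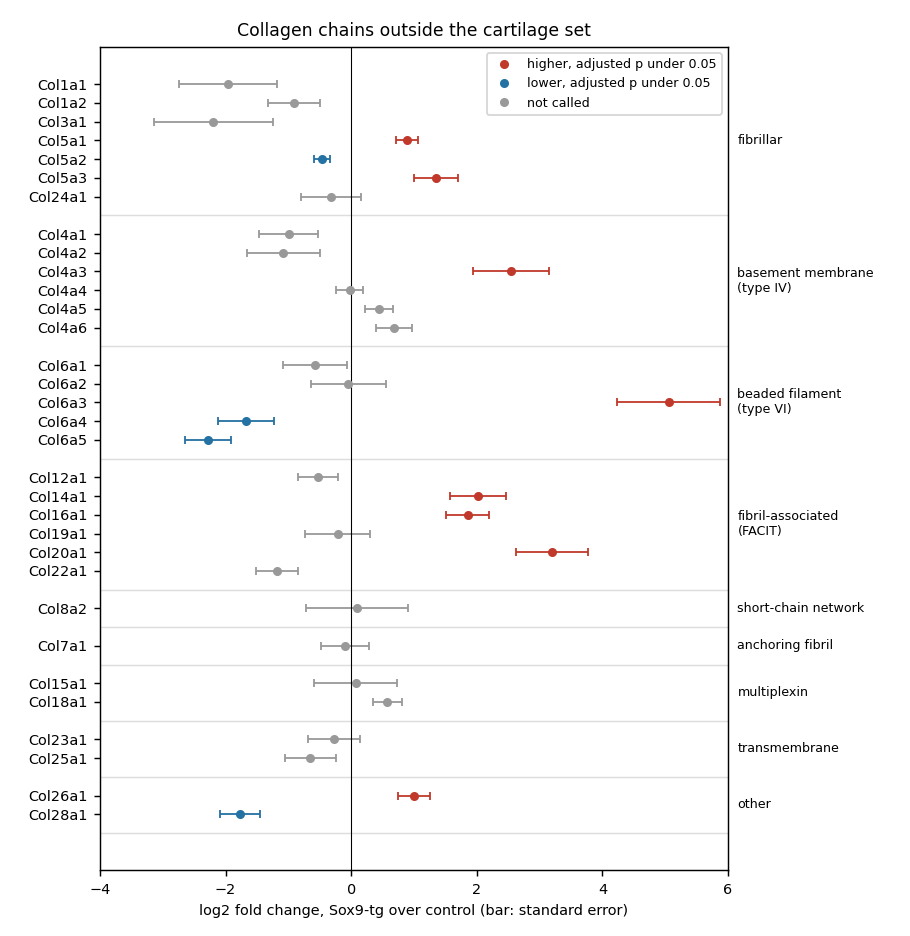
Log2 fold change of each of the 32 tested collagen chains, Sox9-tg over control (horizontal axis, bar: standard error), grouped by collagen family, with chains called higher in red, lower in blue and uncalled chains in grey. Col6a3 stands farthest to the right at 5.05, and calls in both directions occur in the fibrillar, type VI and last groups.

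The chains called in opposite directions within 1 family included those of type VI. Col6a3 (ENSMUSG00000048126, GRCm38 chromosome 1, 90765923 to 90843971, minus strand), the large chain that joins the Col6a1 and Col6a2 chains in the filament, was at 52.6, 281, 71.4 and 33.4 CPM in Sox9-tg libraries and at 2.62, 3.803 and 3.36 CPM in control libraries. Every Sox9-tg library lay above every control library, but the Sox9-tg libraries differed widely among themselves, with library 2 far above the rest. The mean was 109.7 ± 115 CPM in Sox9-tg and 3.26 ± 0.600 CPM in control (SD, n = 4 and 3), a 33.2-fold difference (log2 fold change 5.05, SE 0.81, edgeR adjusted p = 0.00478, Benjamini-Hochberg method). Without Sox9-tg library 2 the log2 fold change was 4.00. Its partner chains did not differ between the groups by the test, on 14 to 134 counts per library. Both were also highest in Sox9-tg library 2 within that group. That library was at 2.83 (Col6a1) and 2.28 (Col6a2) times the mean of the other Sox9-tg libraries, against 5.36 for Col6a3. Col6a1 was at 1.16 to 3.49 CPM in Sox9-tg and 1.80 to 4.36 CPM in control libraries (log2 fold change −0.58, adjusted p = 0.519), and Col6a2 at 0.893 to 3.74 CPM in Sox9-tg and 0.814 to 4.13 CPM in control libraries (−0.05, adjusted p = 0.973). The ratio of Col6a3 to Col6a1 counts was 45.5, 80.6, 58.4 and 25.3 in Sox9-tg libraries and 1.45, 0.873 and 1.76 in control libraries. The ratios did not overlap, and they differed by 5.21 on the log2 scale (exact two-sided permutation test, p = 0.0571, the smallest p that 4 against 3 libraries can give, and 0.0952 adjusted over the 5 chain pairs compared). Because this design cannot reach 0.05, none of the ratio tests could pass.

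The sequence of 250 bases before the annotated start of Col6a3, the chain with the largest fold change among the tested members, is shown with those of Col16a1, Col20a1 and Col28a1, which with it are 4 of the 5 called chains with the smallest adjusted p (Col6a5, close to the counting floor, is not shown). They are from RefSeq (GRCm38.p6), 5′ to 3′ on the strand of the gene, with capitals marking the letters ACAATG or ACAAAG on either strand, short sequences of the kind that Sox proteins bind. Positions are chromosome 1, 90843972 to 90844221 (minus strand) for Col6a3, chromosome 4, 130047590 to 130047839 (plus strand) for Col16a1, chromosome 2, 180986285 to 180986534 (plus strand) for Col20a1, and chromosome 6, 8192618 to 8192867 (minus strand) for Col28a1.
Col6a3: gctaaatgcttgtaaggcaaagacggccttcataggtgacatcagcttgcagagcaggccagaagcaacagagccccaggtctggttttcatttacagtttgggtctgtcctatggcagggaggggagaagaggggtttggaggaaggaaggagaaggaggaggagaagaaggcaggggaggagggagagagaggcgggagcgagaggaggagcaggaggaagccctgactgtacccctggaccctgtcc
Col16a1: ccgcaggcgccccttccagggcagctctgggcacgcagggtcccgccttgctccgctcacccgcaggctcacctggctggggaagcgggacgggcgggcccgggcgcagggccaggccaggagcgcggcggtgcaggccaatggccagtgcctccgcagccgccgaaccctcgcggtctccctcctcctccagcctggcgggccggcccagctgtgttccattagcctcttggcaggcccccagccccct
Col20a1: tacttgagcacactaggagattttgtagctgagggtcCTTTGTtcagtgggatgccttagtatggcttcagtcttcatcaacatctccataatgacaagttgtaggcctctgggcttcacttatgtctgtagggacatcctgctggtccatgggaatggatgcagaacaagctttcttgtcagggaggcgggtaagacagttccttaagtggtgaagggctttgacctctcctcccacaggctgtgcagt
Col28a1: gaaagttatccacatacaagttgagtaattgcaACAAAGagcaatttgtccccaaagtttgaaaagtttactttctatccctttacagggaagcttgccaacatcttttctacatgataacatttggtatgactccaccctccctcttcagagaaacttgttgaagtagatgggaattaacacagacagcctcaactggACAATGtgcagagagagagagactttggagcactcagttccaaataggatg
The stretches before Col6a3 and Col16a1 held neither sequence. The stretch before Col20a1 held 1 match, beginning 213 bases before the start, and that before Col28a1 held 2, beginning 217 and 51 bases before it. In windows from 250 bases before to 50 bases after the start, ACAATG was in 1 of 32 windows of 30 matched chains (3.13%), against 12.6% of 32851 windows of all promoters, and ACAAAG in 5 of 32 (15.6%), against 18.7%. Inverted pairs of ACAAT 3 to 5 bases apart were in 0 of the 32 windows and in 0.137% of all windows. For the cartilage collagens, with 5 genes matched, each of these patterns was in 0 of 6 windows. Such a match is a description of the letters. Col1a1, Col4a3, Col5a2, Col12a1, Col14a1, Col22a1 and Col26a1 had no entry.

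The other type VI chains tested, Col6a5 and Col6a4, lie next to each other on chromosome 9 and fell. Col6a5 (ENSMUSG00000091345, chromosome 9, 105856078 to 105960643, minus strand) was at 0.263, 0.200, 0.193 and 0.195 CPM in Sox9-tg libraries, from 5, 4, 3 and 4 counts, and at 0.930, 1.24 and 1.00 CPM in control libraries, from 16, 38 and 31 counts. The groups did not overlap (log2 fold change −2.28, SE 0.36, edgeR adjusted p = 0.00454), and the Sox9-tg levels were close to the level of 3 counts. Col6a4 was at 0.210, 0.299, 0.129 and 0.146 CPM in Sox9-tg libraries, against 0.639, 0.813 and 0.485 CPM in control libraries (log2 fold change −1.68, SE 0.45, edgeR adjusted p = 0.0386). That call rested on few counts, at most 6 in a Sox9-tg library. It was lost without control library 1 (adjusted p = 0.124), control library 3 (0.106) or Sox9-tg library 3 (0.105), without the count filter (0.172), with DESeq2 (0.104) and with voom (0.0513), and Col6a4 fell below the count filter without control library 2, Sox9-tg library 2 or Sox9-tg library 4. The summed level of type VI chains was 15.4, 36.7, 17.4 and 8.94% of the summed level of all 37 chains in Sox9-tg libraries, against 3.22, 3.07 and 3.599% in control libraries, most of the Sox9-tg share being Col6a3.

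**Figure D2:**
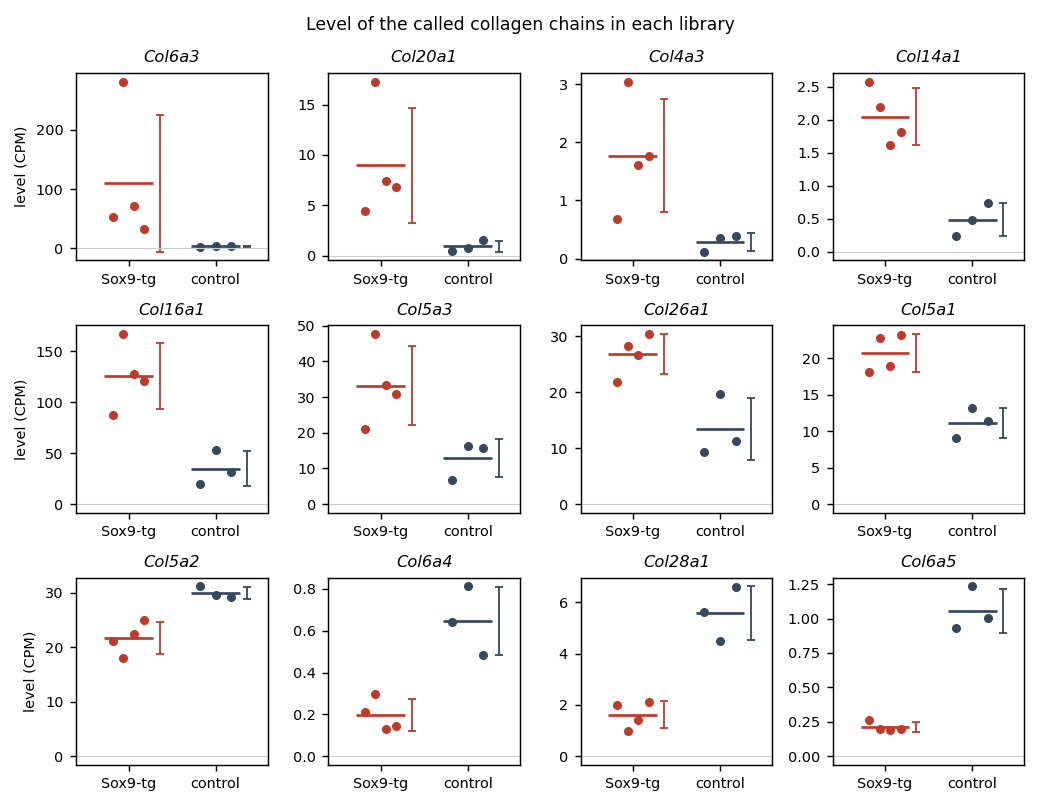
Levels in CPM (linear scale) of the 12 called collagen chains in each library, Sox9-tg left of control in each panel, with points for libraries, horizontal lines for group means and bars for the SD. The Sox9-tg libraries of Col6a3 spread from 33.4 to 281 CPM, and those of Col16a1 from 87.2 to 167 CPM, each above all control libraries.

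Of the 6 FACIT chains tested, 3 rose and none fell, where 7.69% of all tested genes rose and 5.86% fell. Col22a1, described below, was lower without overlap and lay just outside the threshold. Col16a1 (ENSMUSG00000040690, chromosome 4, 130047840 to 130099283, plus strand), a fibril-associated chain that integrins can bind, was at 87.2, 167, 128 and 121 CPM in Sox9-tg libraries, against 19.3, 53.2 and 31.3 CPM in control libraries. All Sox9-tg libraries were above all control libraries, and the means were 126 ± 32.8 and 34.6 ± 17.2 CPM in Sox9-tg and control (3.62-fold, log2 fold change 1.86, SE 0.34, edgeR adjusted p = 0.00873). Per kilobase of exon its level was the highest of the 37 chains in Sox9-tg cells, at 18.6 ± 4.86 RPKM, and the second in control cells, at 5.13 ± 2.54 RPKM. Col20a1 (ENSMUSG00000016356, chromosome 2, 180986535 to 181018363, plus strand), a little-studied FACIT, was at 4.41, 17.3, 7.41 and 6.78 CPM in Sox9-tg libraries, against 0.523, 0.748 and 1.58 CPM in control libraries. The groups did not overlap (9.17-fold, log2 fold change 3.20, SE 0.58, edgeR adjusted p = 0.0078), and 1.54% of its exon bases were shared with another annotated gene. Col14a1, which regulates fibril diameter, was at 2.57, 2.19, 1.61 and 1.81 CPM in Sox9-tg libraries, against 0.232, 0.488 and 0.744 CPM in control libraries, again without overlap (4.06-fold, log2 fold change 2.02, SE 0.44, edgeR adjusted p = 0.0174). Its control levels came from 4, 15 and 23 counts. The call was lost without control library 1 (adjusted p = 0.055) and without both libraries numbered 2.

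The other FACIT chains did not pass. Col22a1, known from tissue junctions such as that of muscle and tendon, was at 1.63, 3.59, 3.09 and 2.39 CPM in Sox9-tg libraries, against 5.87, 8.06 and 4.27 CPM in control libraries. Its groups did not overlap, and its adjusted p lay just outside the threshold (log2 fold change −1.18, SE 0.34, edgeR adjusted p = 0.0508). With the replicate number as a block, which pairs libraries 1 to 3 and leaves out Sox9-tg library 4, the adjusted p was 0.0365. It also passed with DESeq2 (0.00915), voom (0.0495), RLE factors (0.0481), upper-quartile factors (0.0479), total counts (0.0441) and the filter of 1 CPM (0.0458). It did not pass without the count filter (0.0593), and among the 7 fits that left out a library it passed only without Sox9-tg library 2 (0.0482), with adjusted p up to 0.142 in the others. Col12a1, which binds fibrillar collagen, was at 7.72, 15.2, 5.93 and 8.15 CPM in Sox9-tg libraries, against 12.96, 16.7 and 10.5 CPM in control libraries, and the groups overlapped (log2 fold change −0.53, edgeR adjusted p = 0.331; 0.0491 without Sox9-tg library 2). Col19a1 was below 4 CPM in every library and did not differ by the test (adjusted p = 0.839).

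Among the fibrillar chains, those of type V changed in both directions and those of types I and III did not pass. Col5a1 encodes the main type V chain, which seeds fibrils and limits their width. It was at 18.1, 22.7, 18.9 and 23.1 CPM in Sox9-tg libraries and at 9.01, 13.1 and 11.4 CPM in control libraries, with no overlap (1.85-fold, log2 fold change 0.89, SE 0.17, edgeR adjusted p = 0.011; 0.053 without control library 3). Col5a3, a rarer type V chain, was at 21.001, 47.7, 33.3 and 30.9 CPM in Sox9-tg libraries, against 6.80, 16.2 and 15.8 CPM in control libraries. These too did not overlap (2.55-fold, log2 fold change 1.35, SE 0.35, edgeR adjusted p = 0.034), but the call was lost without control library 1 (0.0672), control library 3 (0.0767), or Sox9-tg library 2 (0.0596), 3 (0.0721) or 4 (0.0634). Col5a2, the usual partner of Col5a1, was at 21.2, 18.1, 22.5 and 25.03 CPM in Sox9-tg libraries, against 31.2, 29.5 and 29.1 CPM in control libraries, and fell to 0.724 of the control level (log2 fold change −0.47, SE 0.13, edgeR adjusted p = 0.0479). That call lay at the threshold. It was lost when any single library was left out (adjusted p from 0.0569 to 0.186), with RLE factors (0.0557) and without the count filter (0.113). The ratio of Col5a1 to Col5a2 counts was 0.851, 1.26, 0.840 and 0.924 in Sox9-tg libraries, against 0.289, 0.444 and 0.390 in control libraries. These ratios did not overlap (difference of 1.38 on the log2 scale, exact two-sided permutation test p = 0.0571, 0.0952 adjusted).

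Col1a1 and Col1a2, the chains of type I collagen of skin, bone and meninges, and Col3a1, which accompanies them, were low and uneven. Col1a1 was at 2.21, 2.34, 0.193 and 1.17 CPM in Sox9-tg libraries, against 2.27, 12.5 and 2.75 CPM in control libraries (log2 fold change −1.97, SE 0.78, edgeR adjusted p = 0.143). Col1a2 was at 5.51, 9.33, 4.64 and 6.98 CPM in Sox9-tg libraries, against 7.03, 22.004 and 8.12 CPM in control libraries (−0.91, SE 0.41, edgeR adjusted p = 0.201). Col3a1 was at 0 to 1.95 CPM in Sox9-tg and 1.74 to 7.93 CPM in control libraries (−2.20, SE 0.95, edgeR adjusted p = 0.176). All 3 were highest in control library 2. Without that library, the log2 fold change was −0.76 for Col1a1, −0.19 for Col1a2 and −1.08 for Col3a1. With the replicate number as a block, Col1a2 (−0.81, adjusted p = 0.0319) and Col3a1 (−2.14, adjusted p = 0.0419) passed. The summed level of 18 fibroblast markers was 22.1, 59.6, 23.8 and 28.3 CPM in Sox9-tg libraries and 26.7, 77.8 and 27.8 CPM in control libraries, likewise highest in the libraries numbered 2. Of the 18, 9 were tested, with Lum higher and Islr and Crabp2 lower, and the other 9 had too few counts to be tested. Among these, Dcn (0.158 to 0.200 CPM in Sox9-tg and 0.465 to 1.63 CPM in control libraries), Aldh1a2 (0 to 0.263 CPM in Sox9-tg and 0.349 to 0.975 CPM in control libraries) and Slc6a13 (0 to 0.105 CPM in Sox9-tg and 0.232 to 1.56 CPM in control libraries) were lower in every Sox9-tg library, and the other 6 overlapped. Mgp, Osr1 and Twist1 reached at most 0.349, 0.130 and 0.488 CPM in any library. Their part in the levels of these chains was not tested. Col24a1 was at 0.244 to 0.788 CPM in Sox9-tg and 0.465 to 0.582 CPM in control libraries.

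The type IV chains come in neighbouring pairs, each pair read from a shared start region in opposite directions. Col4a1 and Col4a2, the chains of every basement membrane, were at 19.1, 35.6, 19.7 and 19.8 CPM and at 12.1, 24.4, 13.4 and 13.8 CPM in Sox9-tg libraries, against 23.7, 91.6 and 25.3 CPM and 13.4, 74.1 and 13.4 CPM in control libraries. Control library 2 was far above every other library, Sox9-tg library 2 was the highest of its group for both chains, and the groups overlapped (log2 fold changes −0.996 and −1.08, adjusted p = 0.216 and 0.28 by edgeR). Without control library 2 the values were −0.06 (adjusted p = 0.92) for Col4a1 and 0.25 (adjusted p = 0.624) for Col4a2, which changed direction. The same library held the high endothelial marker levels given above, such as 48.8 CPM of Cldn5, against 2.91 and 2.07 CPM in control libraries 1 and 3, and the part of this in both chains was not tested. Markers of pericytes and smooth muscle summed to 103 to 133 CPM in Sox9-tg libraries, against 134, 263 and 133 CPM in control libraries 1 to 3. Most of each sum was Notch3 alone, at 93.1, 92.5, 81.8 and 107 CPM in Sox9-tg libraries, against 106, 162 and 106 CPM in control libraries. The sum therefore says little about the other genes of that list. Choroid plexus and ependymal markers summed to 38.0 to 80.4 CPM in Sox9-tg libraries, against 29.1, 132 and 30.7 CPM in control libraries. In the choroid plexus and ependymal list Ttr rose (2.81-fold, edgeR adjusted p = 0.0467) and Clic6 fell (log2 fold change −1.74, edgeR adjusted p = 0.0295). The log2 ratio of Col4a1 to Col4a2 counts was 0.57 ± 0.06 in Sox9-tg and 0.68 ± 0.33 in control libraries (SD, n = 4 and 3), with control library 2 at 0.31, against 0.83 and 0.92 in control libraries 1 and 3.

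Col4a3 and Col4a4, with Col4a5 the chains of the kidney filter's basement membrane, did not move together. Col4a3 was at 0.683, 3.04, 1.61 and 1.76 CPM in Sox9-tg libraries, from 13, 61, 25 and 36 counts, and at 0.116, 0.358 and 0.388 CPM in control libraries, from 2, 11 and 12 counts. The groups did not overlap (5.84-fold, log2 fold change 2.55, SE 0.60, edgeR adjusted p = 0.0247), and the call was lost without control library 1 (0.083), 2 (0.0546) or 3 (0.0822) or Sox9-tg library 3 (0.0511) or 4 (0.0525). It shared 5.65% of its exon bases with a gene on the opposite strand, and the use of strand in counting is not known. Col4a4 was at 4.46, 5.94, 4.70 and 5.56 CPM in Sox9-tg libraries, against 5.87, 5.46 and 4.46 CPM in control libraries, which overlapped (log2 fold change −0.02, SE 0.22, edgeR adjusted p = 0.963). The genes start 71 bases apart on chromosome 1 (82586850 to 82586920), in GRCm38.p6, and the bases between, on the minus strand, held neither motif.
Col4a3-Col4a4 gap: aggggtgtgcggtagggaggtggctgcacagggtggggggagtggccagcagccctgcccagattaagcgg
Col4a5 and Col4a6, paired on chromosome X, were at 25.3, 44.8, 30.7 and 36.1 CPM and at 6.195, 11.5, 8.44 and 8.93 CPM in Sox9-tg libraries, against 21.5, 32.1 and 21.5 CPM and 4.01, 7.31 and 4.98 CPM in control libraries. Neither passed the test (log2 fold changes 0.45 and 0.68, adjusted p = 0.238 and 0.16 by edgeR), though Col4a6 did with the replicate block (0.69, adjusted p = 0.0455). The log2 ratio of Col4a5 to Col4a6 counts was 1.97 ± 0.08 in Sox9-tg and 2.22 ± 0.17 in control libraries, which did not overlap (exact two-sided permutation test, p = 0.0571, 0.0952 adjusted). Of the summed 37 chains, type IV chains were 18.8, 15.9, 18.1 and 20.8% in Sox9-tg and 32.4, 44.5 and 29.1% in control libraries. A share also depends on the other chains in the sum. The summed type IV level itself overlapped, at 67.8 to 125 CPM in Sox9-tg and 68.6 to 211 CPM in control libraries.

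**Figure D3:**
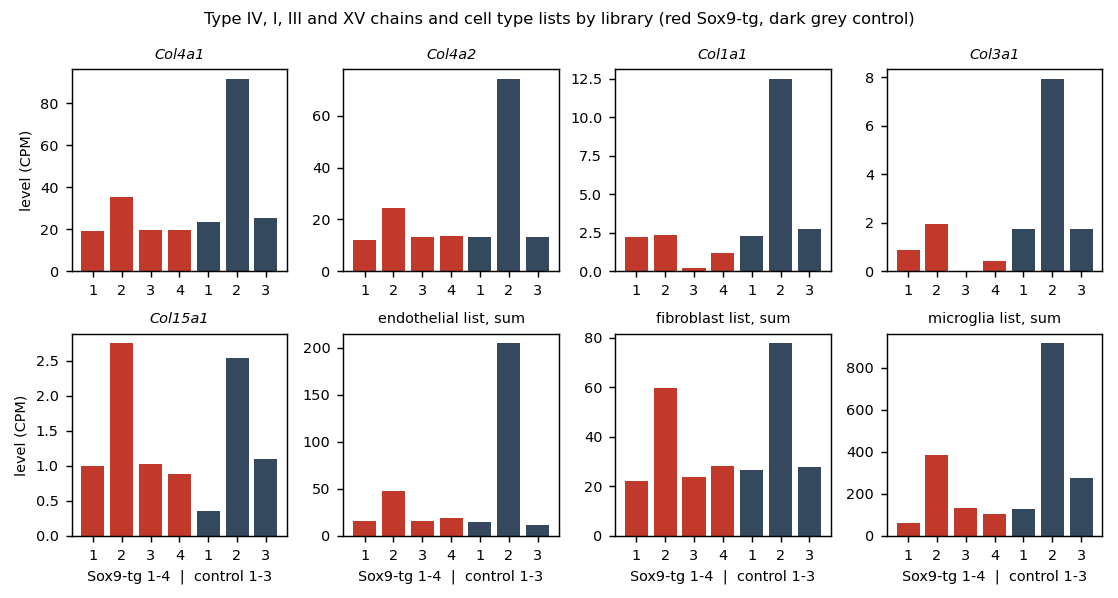
Bars give levels in CPM of Col4a1, Col4a2, Col1a1, Col3a1 and Col15a1 and the summed levels of the endothelial, fibroblast and microglial marker lists in each library (red Sox9-tg 1 to 4, dark grey control 1 to 3), with control library 2 at 91.6 CPM for Col4a1 and 204 CPM for the endothelial list.

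Of the chains in no larger family, Col26a1 and Col28a1 passed in opposite directions. Col26a1, known from testis and ovary, was at 21.9, 28.3, 26.7 and 30.4 CPM in Sox9-tg libraries, against 9.24, 19.7 and 11.3 CPM in control libraries, without overlap (1.99-fold, log2 fold change 0.99, SE 0.25, edgeR adjusted p = 0.0329). The call was lost without control library 1 (0.0927) or 3 (0.14) or Sox9-tg library 2 (0.0595), 3 (0.0742) or 4 (0.083), and with upper-quartile factors (0.0519) or total counts (0.0508). Col28a1 (ENSMUSG00000068794, chromosome 6, 7997808 to 8192617, minus strand), a chain with von Willebrand factor A domains known from peripheral nerve, was at 2.00, 0.998, 1.42 and 2.10 CPM in Sox9-tg libraries, against 5.64, 4.49 and 6.60 CPM in control libraries. The groups did not overlap (means 1.63 ± 0.516 and 5.57 ± 1.06 CPM in Sox9-tg and control, log2 fold change −1.77, SE 0.32, edgeR adjusted p = 0.00837; 0.0544 without control library 3). Schwann and neural crest markers, a list of 10 genes, summed to 410 to 541 CPM in Sox9-tg and 452 to 549 CPM in control libraries, of which Sox2 alone made up 369 to 455 CPM in Sox9-tg and 436 to 532 CPM in control libraries. Of the 8 tested, Foxd3, a neural crest transcription factor, rose (22.8 to 69.9 CPM in Sox9-tg and 0 to 1.20 CPM in control libraries, edgeR adjusted p = 0.000832). Cdh19 rose as well (2.88 to 6.48 CPM in Sox9-tg and 0.232 to 1.20 CPM in control libraries, edgeR adjusted p = 0.0268), and Ngfr fell (1.15 to 1.90 CPM in Sox9-tg and 2.59 to 4.71 CPM in control libraries, edgeR adjusted p = 0.0419). The part of these genes in the levels of Col28a1 was not tested.

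The remaining chains did not pass. Col18a1, the source of the fragment endostatin, was at 12.8, 18.6, 14.9 and 16.1 CPM in Sox9-tg and at 10.6, 13.7 and 7.05 CPM in control libraries (log2 fold change 0.58, edgeR adjusted p = 0.157). Col23a1, a transmembrane chain, was at 14.5, 6.63, 4.57 and 7.61 CPM in Sox9-tg and at 5.93, 14.2 and 10.03 CPM in control libraries, which overlapped (−0.28, adjusted p = 0.726). Col25a1, a transmembrane chain of neurons, was at 0.830 to 2.26 CPM in Sox9-tg and 1.80 to 2.73 CPM in control libraries. Col15a1, of basement membrane zones, lay at 0.878 to 2.74 CPM in Sox9-tg and 0.349 to 2.54 CPM in control libraries. Col8a2, of the short-chain network, lay at 0.683 to 2.84 CPM in Sox9-tg and 0.291 to 2.73 CPM in control libraries, and Col7a1, of anchoring fibrils, at 1.61 to 3.41 CPM in Sox9-tg and 1.45 to 3.33 CPM in control libraries.

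Summed over all 37 chains the level was 360, 788, 434 and 413 CPM in Sox9-tg libraries, against 211, 474 and 241 CPM in control libraries. Cartilage collagens summed to 1875, 4552, 2604 and 2549 CPM in Sox9-tg libraries, against 160, 232 and 202 CPM in control libraries. The share of the 37 chains in all collagen counts was thus 16.1, 14.8, 14.3 and 13.9% in Sox9-tg libraries, against 57.0, 67.2 and 54.4% in control libraries. Per kilobase of exon the leading members in Sox9-tg cells after Col16a1 were Col6a3 (9.17 ± 9.65 RPKM, 0.273 ± 0.0502 in control), Col4a5 (5.09 ± 1.24, 3.73 ± 0.911 in control) and Col5a3 (4.88 ± 1.62, 1.90 ± 0.782 in control). Without Sox9-tg library 2 the mean of Col6a3 was 4.38 RPKM, below that of Col4a5 at 4.56 RPKM. Col4a1 was at 3.15 ± 1.08 RPKM in Sox9-tg cells and at 6.28 ± 5.19 RPKM in control cells, where it was first. That rank rested on control library 2, without which Col16a1 was first at 3.75 RPKM and Col4a1 was at 3.28 RPKM.

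**Figure D4:**
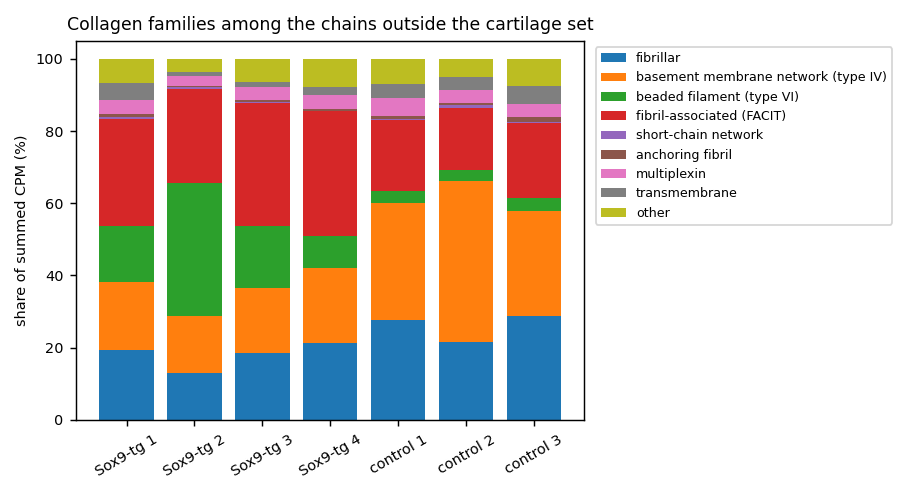
Share of each collagen family in the summed level of the 37 chains in each library (percent), Sox9-tg libraries left of control libraries. Type VI makes up 8.94 to 36.7% in Sox9-tg and 3.07 to 3.599% in control libraries. Type IV makes up 15.9 to 20.8% in Sox9-tg and 29.1 to 44.5% in control libraries. Summed type IV levels overlapped, at 67.8 to 125 CPM in Sox9-tg and 68.6 to 211 CPM in control libraries.

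**Figure D5:**
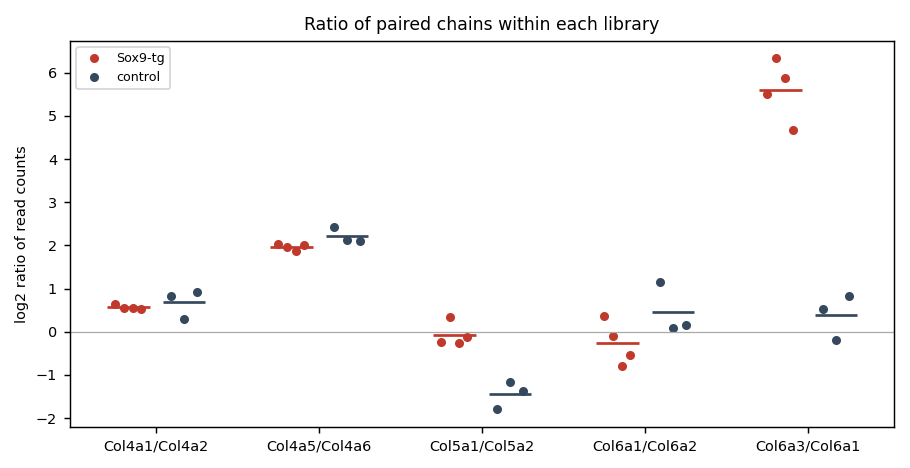
Log2 ratio of counts between partner chains in each library for the 5 pairs with at least 10 counts in every library, Sox9-tg left of control, with points for libraries and lines for group means. Col6a3 to Col6a1, Col5a1 to Col5a2 and Col4a5 to Col4a6 ratios do not overlap between groups.

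Genes for the modification, folding, secretion, cleavage and cross-linking of collagen were described as a list of 34. Of the 33 with enough counts, 6 rose and 2 fell, where 7.69% of all tested genes rose and 5.86% fell, and the list's median was 0.42 on the log2 scale. Loxl3, a lysyl oxidase that cross-links collagen, was at 43.6, 81.9, 62.7 and 61.4 CPM in Sox9-tg libraries, against 11.9, 20.5 and 13.2 CPM in control libraries (4.09-fold, edgeR adjusted p = 0.00162). Plod1, a lysyl hydroxylase, was at 161, 202, 204 and 202 CPM in Sox9-tg libraries, against 48.1, 85.6 and 54.7 CPM in control libraries (3.06-fold, edgeR adjusted p = 0.0018). Loxl1, another lysyl oxidase, went the other way, at 5.62, 7.38, 8.76 and 9.86 CPM in Sox9-tg libraries, against 27.6, 28.1 and 24.3 CPM in control libraries (log2 fold change −1.76, edgeR adjusted p = 0.000933). These 3 held without any single library. Plod2, P4ha1, Crtap and Adamts3 rose, by log2 fold changes of 1.05, 0.97, 1.05 and 0.44, and Adamts2, a procollagen protease, fell by 1.40. Of these, Plod2 was lost without control library 3 (0.0534), and P4ha1 and Crtap without control library 1 or 3 or Sox9-tg library 2, 3 or 4 (adjusted p up to 0.126 and 0.104). Adamts2 was lost without any control library or Sox9-tg library 3 or 4 (up to 0.0996), and Adamts3 without any library but Sox9-tg 1 (up to 0.18). Serpinh1, the collagen chaperone, averaged 123 ± 31.5 CPM in Sox9-tg and 127 ± 39.6 CPM in control libraries and did not pass (log2 fold change −0.04, adjusted p = 0.948).

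Of 14 collagen receptor genes tested from a list of 15, 2 rose and 3 fell, beside the same 7.69% and 5.86% of all tested genes, and the list's median was −0.07 on the log2 scale. Adgrg6, a receptor of type IV collagen in Schwann cells, was at 43.2, 39.0, 33.1 and 37.2 CPM in Sox9-tg libraries, against 6.28, 7.96 and 6.69 CPM in control libraries (5.45-fold, log2 fold change 2.45, edgeR adjusted p = 0.000118). Antxr1, which binds collagen, was at 87.5, 93.8, 86.4 and 87.9 CPM in Sox9-tg libraries, against 47.9, 58.9 and 55.8 CPM in control libraries (1.64-fold, edgeR adjusted p = 0.00363). Neither pair of groups overlapped, and both calls held without any single library. Ddr1 and Ddr2, tyrosine kinases that collagen activates, and Mrc2, which takes collagen up, fell by 0.47, 0.91 and 0.63 on the log2 scale (edgeR adjusted p = 0.0374, 0.0182 and 0.0194). Ddr1 was lost without any library but Sox9-tg 1 (adjusted p up to 0.151), Ddr2 without control library 2 or 3 or Sox9-tg library 4 (up to 0.0975), and Mrc2 without control library 1 or Sox9-tg library 3 or 4 (up to 0.0812). Itgb1, the shared beta subunit of the collagen integrins, did not pass (0.35, adjusted p = 0.175).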

How the data were processed

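For every library the authors deposited raw counts, whole numbers of reads for each gene. The submitters' processing notes name the build GRCm38 and the tools DESeq2, DESeq, Subread 1.5.2 with featureCounts, STAR 2.5.2b and Trimmomatic 0.36. What each was set to, which annotation was counted and whether strand was used is not given in the sources used here. RNA was extracted with a column kit, per the labels' protocols. In all, 174 rows had no gene name.

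The low-count filter was edgeR's filterByExpr with default values (10 counts, total of 15), which 16616 genes passed. Levels in CPM used TMM factors (0.965 to 1.05), and RPKM divides them by the union of exon lengths in GENCODE M21. The test was edgeR 4.0.16's quasi-likelihood F test in R 4.3.3, two-sided, with group as the only term and Benjamini-Hochberg adjustment over all genes tested, threshold 0.05; the biological coefficient of variation was 0.265. Chain ratios were compared with exact permutation tests in SciPy 1.17.1. Alternatives used DESeq2 1.42.0 and limma 3.58.1. The steps were tested on simulated data.

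The members and lists were chosen with earlier results of these data known. Values in every library are given for called members and for uncalled members averaging at least 5 CPM in a group, with other members by range. Deviations from the group mean correlated between same-numbered libraries at 0.389, 0.621 and 0.132 for numbers 1 to 3. The highest of the unlike pairs was 0.120, close to the value for number 3. Deviations were taken from the mean of the same few libraries, so these correlations depend on each other. They do not establish a pairing. The main tests left the numbers out, and an alternative fit used them as a block. Depth per sample sets a floor of 3 counts, 0.0970 to 0.193 CPM, which covers counting error only.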

Additional observations from a re-analysis of the deposited data

Results flagged for a closer look

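Each of 59 sets of values from the same 4 Sox9-tg libraries was tested for a single distant value, and 10 had one. Chance gives about 1 in 20 for independent sets. These sets share their libraries and are not independent, so the count cannot be compared with that rate. In Sox9-tg library 2 the level stood far above the other 3 for Col4a1 (35.6 CPM), Col4a2 (24.4 CPM), Col6a1 (3.49 CPM), Col6a3 (281 CPM), Col8a2 (2.84 CPM) and Col15a1 (2.74 CPM). The same library was high in the summed fibroblast markers (59.6 CPM) and the summed endothelial markers (47.6 CPM). Sox9-tg library 1 was the highest for Col6a5 (0.263 CPM, on 5 counts) and the lowest for Plod1 (161 CPM). Among controls, a group too small for this rule, library 2 was the highest for 24 of the 32 tested chains. It was over 2-fold the mean of the others for 10 of them. No matching count over all tested genes is given, so this cannot be read as a trait of the chains.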

How the results depend on the processing

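Over all genes the calls were 1278 higher and 973 lower, and 1113 higher and 1112 lower with upper-quartile factors, 1117 and 1087 with total counts. With the replicate number as a block (libraries 1 to 3), 1595 genes were higher and 1491 lower; of the chains 9 were higher and 6 lower, and beside Col1a2, Col3a1, Col4a6 and Col22a1 no other call changed, among the chains or the named pathway genes (Col6a4 was below the filter). Libraries 1 to 3 without the block gave 826 genes higher and 530 lower, and 5 chains higher and 2 lower. Without the count filter 2 chains were lower. Without both libraries numbered 2, an alternative chosen after seeing the data, 5 chains were higher and 2 lower. Leaving out each library in turn gave 575 to 1785 genes higher and 390 to 1384 lower, and 4 to 8 chains higher and 1 to 4 lower.

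Uncalled chains changed direction in some settings, and the cause was not tested. The log2 fold change of Col15a1 was −0.0078 with total counts, and that of Col4a4 0.0031 with voom. With the replicate block Col6a2 was at 0.095 and Col7a1 at 0.099, and without the block 0.014 and 0.059. Without both libraries numbered 2, Col6a2 was at 0.37, Col7a1 at 0.016, Col19a1 at 0.31 and Col23a1 at 0.16. Leaving out each library in turn, the ranges were −1.46 to 0.25 for Col4a2, −0.13 to 0.071 for Col4a4, −0.44 to 0.76 for Col6a2, −0.38 to 0.10 for Col7a1, −0.67 to 1.66 for Col8a2, −0.47 to 0.92 for Col15a1, −0.72 to 0.076 for Col19a1 and −0.69 to 0.059 for Col23a1. The log2 ratio difference of Col4a1 to Col4a2 ranged from −0.30 to 0.0021. Counts of 2 to 61 per library limit Col4a3, Col6a4 and Col6a5, and control counts of 4 to 23 limit Col14a1.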
